A study of Mus musculus with 9 samples.

Results

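The oocyte growth factors Gdf9, Bmp15, Bmp6 and Fgf8 and the receptor Kit were followed in the polysome-bound mRNA of mouse oocytes through meiotic maturation. The 5 genes were chosen by name, and every probe set annotated to each of them was taken on all 9 arrays. They had 8 probe sets among the 45037 of the array that are not controls, and 5 of the 18193 genes tested. Gdf9, Bmp6 and Fgf8 had 1 probe set each, Bmp15 had 3 and Kit had 2.

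Polysome-bound mRNA is the fraction of mRNA that is loaded with ribosomes. It was amplified and hybridised to Affymetrix mouse whole-genome arrays, with 3 arrays for each of 3 stages. At the germinal vesicle (GV) stage the oocyte is arrested in prophase of meiosis. At metaphase I (MI) the first division is under way, and at metaphase II (MII) the egg has arrested again and awaits fertilisation. GV, MI and MII oocytes came from mice 0, 4 and 14 h after human chorionic gonadotropin, which was injected 48 h after pregnant mare's serum gonadotropin in all groups. No genotype, transgene, strain or age is stated in the labels used here. Every other label of the MI samples reads MI, while their description reads pGVB, which is not explained. The titles number the samples of each stage as biological replicates without saying what was replicated (animals, pools or collections), so p-values measure the spread between these samples.

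GDF9 and BMP15 are ligands of the transforming growth factor beta (TGF-beta) family that the oocyte secretes towards the granulosa and cumulus cells around it, which they instruct to proliferate, to supply metabolites and, after the ovulatory signal, to expand. BMP6, a bone morphogenetic protein, and FGF8, a fibroblast growth factor, are further secreted ligands of the oocyte, and FGF8 is known to act together with BMP15 on glycolysis in cumulus cells. KIT runs the other way: it is a receptor tyrosine kinase on the oocyte surface that receives Kit ligand from granulosa cells and feeds the phosphoinositide 3-kinase pathway during follicle growth.

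On the deposited scaling between arrays, stage means of the 5 genes differed by less than 1 on the log2 scale, while several other oocyte mRNAs moved by 2 or more. The confidence intervals of Fgf8 ran beyond 1 in both directions, so its difference was poorly known. Gdf9 and Bmp15 gave their lowest mean signals at MII, the stages of Bmp6 and Fgf8 overlapped in every comparison, and Kit was most variable at GV. None of the 5 passed the test in any comparison of stages. These statements hold for the deposited scaling. With each array centred on ribosomal protein genes instead, all 5 were higher at MII than at MI, by 2.03 to 3.04, and passed. Each sample is bulk RNA, so fewer oocytes and less RNA per oocyte cannot be told apart, and neither can the amount of an mRNA and the share of it on polysomes.

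The arrays had median intensities between 12.39 and 13.22, and their number limits the precision of every value. As a reference for background served 43 probe sets of olfactory receptor genes, which oocytes are not known to use. Their 95th percentile lay between 15.8 (MII 2) and 187 (MI 2) across arrays, numbered here by stage and replicate. Among 11 measured oocyte markers, 10 or 11 lay above this reference on every array, the zona pellucida genes on all 9. The summed intensity of 20 granulosa, cumulus and theca cell markers was 1146 to 1477 at GV, 1103 to 1677 at MI and 784 to 1236 at MII, against 47133 to 49706, 40867 to 44301 and 22372 to 28944 for the oocyte markers. None of those 20 lay above the reference on all 9 arrays. Only 3 of them, the follicle-stimulating hormone receptor Fshr and the theca enzyme Cyp17a1 included, lay above it on 0 arrays, and all others on at least 1. MI 3 stood apart, with 16 of the 20 above its reference of 17.5, while MII 2 had 10 above its lower reference of 15.8. The summed signal of 1677 and the median log2 value of 6.04 of these markers on MI 3 were the highest of the 9 arrays. The part of these cells in the values below was not tested.

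Gdf9 gave intensities of 9077, 9193 and 8546 on the GV arrays, 8861, 8303 and 6653 on the MI arrays and 6031, 7095 and 6343 on the MII arrays. The 3 MII arrays all lay below the 3 GV arrays, while MI 3 fell among the MII values and the other 2 MI arrays among or near the GV values. The stage means were 8939 ± 345, 7939 ± 1148 and 6489 ± 547 (SD, n = 3 each). Gdf9 had the tightest replicates of the 5 genes: its residual SD within stages was 0.15 on the log2(intensity + 16) scale, at the 0.835 percentile of genes with signal at or above the median. It was also the brightest of the 5, at the 99.97 percentile of genes by signal. Its spread was not compared with that of genes of like brightness. MII minus GV was -0.46 ± 0.19 (SE of the fit), which is 1.38-fold lower, with a 95% confidence interval from -0.91 to -0.02. The unadjusted p was 0.0438 and the limma p after Benjamini-Hochberg adjustment over all genes was 0.179. MI minus GV was -0.18 (interval -0.63 to 0.27, limma adjusted p = 0.923) and MII minus MI was -0.28 (interval -0.73 to 0.16, limma adjusted p = 0.488). The intervals thus reached at most a 1.88-fold lower signal at MII than at GV.

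Bmp15 was read by 3 probe sets, here numbered from the brightest. Set 1 gave 5856, 6655 and 5528 at GV, 5525, 6594 and 5835 at MI and 5783, 3030 and 2872 at MII. The array MII 1 lay within the range of the other stages, and MII 2 and MII 3 lay well below it. Set 2 gave 3864, 5110 and 4511 at GV, 4303, 4802 and 4801 at MI and 3280, 3308 and 2696 at MII. Set 3, whose name marks it as matching more than a single transcript, gave 3414, 4433 and 4146 at GV, 3420, 3841 and 4633 at MI and 3095, 2638 and 2486 at MII. In sets 2 and 3 all 3 MII arrays lay below every GV and MI array, MII 1 included, so the sets differed in where they placed that array. Over the 9 arrays, the log2 values of set 1 correlated at Pearson's r = 0.81 with set 2 and 0.83 with set 3, and those of sets 2 and 3 at 0.94, a description over arrays that the sets share.

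The stage means of Bmp15 were alike at GV and MI and lower at MII: 6013 ± 579, 5985 ± 550 and 3895 ± 1637 in set 1 and 4495 ± 623, 4635 ± 288 and 3095 ± 346 in set 2 (SD, n = 3). Set 3 gave 3998 ± 525, 3965 ± 616 and 2739 ± 317. In the gene fit, which used set 1, MI minus GV was -0.01 ± 0.29 (interval -0.68 to 0.66). MII minus MI was -0.69 ± 0.29 (interval -1.36 to -0.02), with an unadjusted p of 0.0451 and a limma adjusted p of 0.218. MII minus GV was -0.70 ± 0.29, 1.62-fold lower, with a limma adjusted p of 0.178. The smaller spread of set 2 gave an MII minus MI of -0.58 ± 0.17 and a limma adjusted p of 0.102 over all 45037 probe sets, and set 3 gave -0.53 ± 0.18 and 0.186. Bmp15 had no call in the gene fit, and for set 1 this depended on array MII 1. Without it, MII minus MI was -1.01 with a limma adjusted p of 0.0400 and MII minus GV was -1.02 with 0.0285. Sets 2 and 3 passed in 0 of the 9 fits that left out 1 array, in either comparison. Their lowest limma adjusted p in those fits was 0.0966 for set 2 and 0.113 for set 3. Set 2 passed both comparisons with a pseudocount of 64 in place of 16 (limma adjusted p = 0.0467 and 0.0469). That was 1 of 13 alternative settings for set 2, and set 3 passed in 0 of 13.

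**Figure D1:**
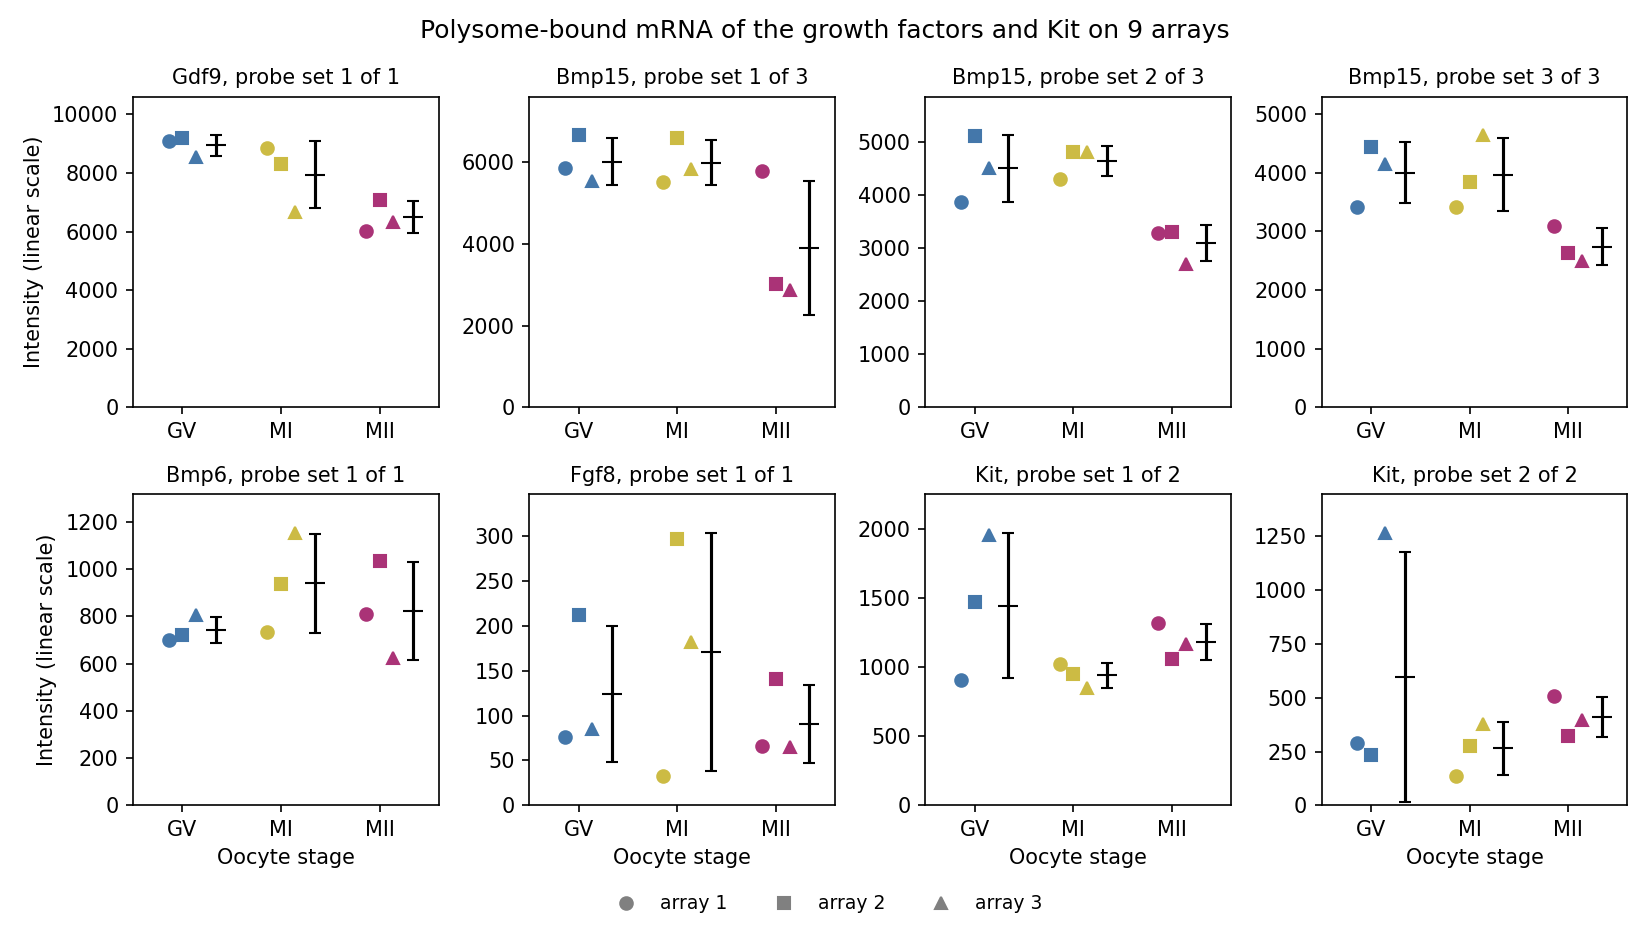
Intensity on a linear scale (vertical axis) of the 8 probe sets at the GV, MI and MII stage (horizontal axis); each point is 1 array, its shape gives the replicate number, and the bars to the right are the mean and SD of 3 arrays. The 3 MII arrays lie below all GV arrays in Gdf9 and in sets 2 and 3 of Bmp15, while in set 1 of Bmp15 the array MII 1 stays at 5783.

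Arrays of MII that all lie below those of another stage were common on this platform. Of all genes, 17.3% had 3 MII arrays below the 3 GV arrays, as Gdf9 did. Of all probe sets, 11.6% had their MII arrays below the MI arrays and 13.1% below the GV arrays, as sets 2 and 3 of Bmp15 did.

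Bmp6 gave 702, 723 and 806 at GV, 733, 939 and 1152 at MI and 810, 1035 and 622 at MII. The stages overlapped throughout: MII held 1 array below all GV arrays and 2 above them, and MI 3 was the highest of the 9. Its stage means were 744 ± 55.2, 941 ± 209 and 822 ± 207 (SD, n = 3), so the spread was larger at MI and MII than at GV. MI minus GV was 0.31 ± 0.26 (interval -0.29 to 0.91, limma adjusted p = 0.893), MII minus MI was -0.20 (interval -0.80 to 0.40) and MII minus GV was 0.11 (interval -0.48 to 0.71). Bmp6 alone among the 5 genes had a mean that was higher at MII than at GV, and without MII 2 this difference turned to -0.06.

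Fgf8 gave the least even signal of the 5 genes, near the background reference on some arrays. Its intensities were 76.4, 211.6 and 85.3 at GV, 32.3, 296.4 and 182.2 at MI and 65.6, 140.3 and 65.0 at MII. The second array was the highest of each stage, and the MI arrays alone spanned the whole range of the other 6. On MI 1 and MII 3 it lay below the olfactory receptor reference, and on the other 7 arrays above it. The residual SD was 0.96 on the log2 scale, at the 73.9 percentile of genes with signal at or above the median. MI minus GV was 0.16 ± 0.70, MII minus MI was -0.51 ± 0.70 and MII minus GV was -0.35 ± 0.70 (limma adjusted p = 0.997, 0.773 and 0.845). The intervals of these differences ran from -1.44 to 1.77, from -2.12 to 1.10 and from -1.96 to 1.26, so changes of 2-fold in either direction were not detectable for Fgf8. Leaving out 1 array turned each sign: without MI 2, MI minus GV was -0.39 and MII minus MI was 0.05, and without GV 2, MII minus GV was 0.06. MI minus GV was also below 0 without GV 1, GV 3 or MI 3 (-0.07 to -0.01), and without MI 1 it was 0.95.

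Kit, the only receptor of the 5, was read by 2 probe sets. Set 1 gave 907, 1473 and 1953 at GV, 1025, 950 and 847 at MI and 1318, 1060 and 1167 at MII, and set 2 gave 289, 233 and 1264 at GV, 136, 277 and 380 at MI and 508, 323 and 396 at MII. The array GV 3 was the highest of the 9 in both sets, and in set 2 it stood more than 2-fold above every other array. In set 1 all 3 MII arrays lay above all 3 MI arrays, as they did in 11.7% of all genes, and in set 2 these stages overlapped. Stage means were 1444 ± 524, 941 ± 89.4 and 1182 ± 129 in set 1 and 596 ± 579, 264 ± 123 and 409 ± 93.2 in set 2 (SD, n = 3).

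In the gene fit Kit gave an MI minus GV of -0.55 ± 0.29 (interval -1.22 to 0.12, limma adjusted p = 0.802), an MII minus MI of 0.32 (interval -0.35 to 0.99, limma adjusted p = 0.627) and an MII minus GV of -0.22 (interval -0.89 to 0.45, limma adjusted p = 0.740). Set 2 gave -0.82 ± 0.63, 0.68 and -0.14 for the same comparisons, with limma adjusted p of 0.950, 0.712 and 0.953. The difference between GV and MI leaned on array GV 3: without it, MI minus GV was -0.30 in set 1 and -0.08 in set 2, and MII minus GV turned to 0.03 in set 1 and to 0.60 in set 2. Without MII 2, MII minus GV was 0.01 in set 2. The log2 values of both sets correlated at r = 0.63 over the 9 arrays.

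**Figure D2:**
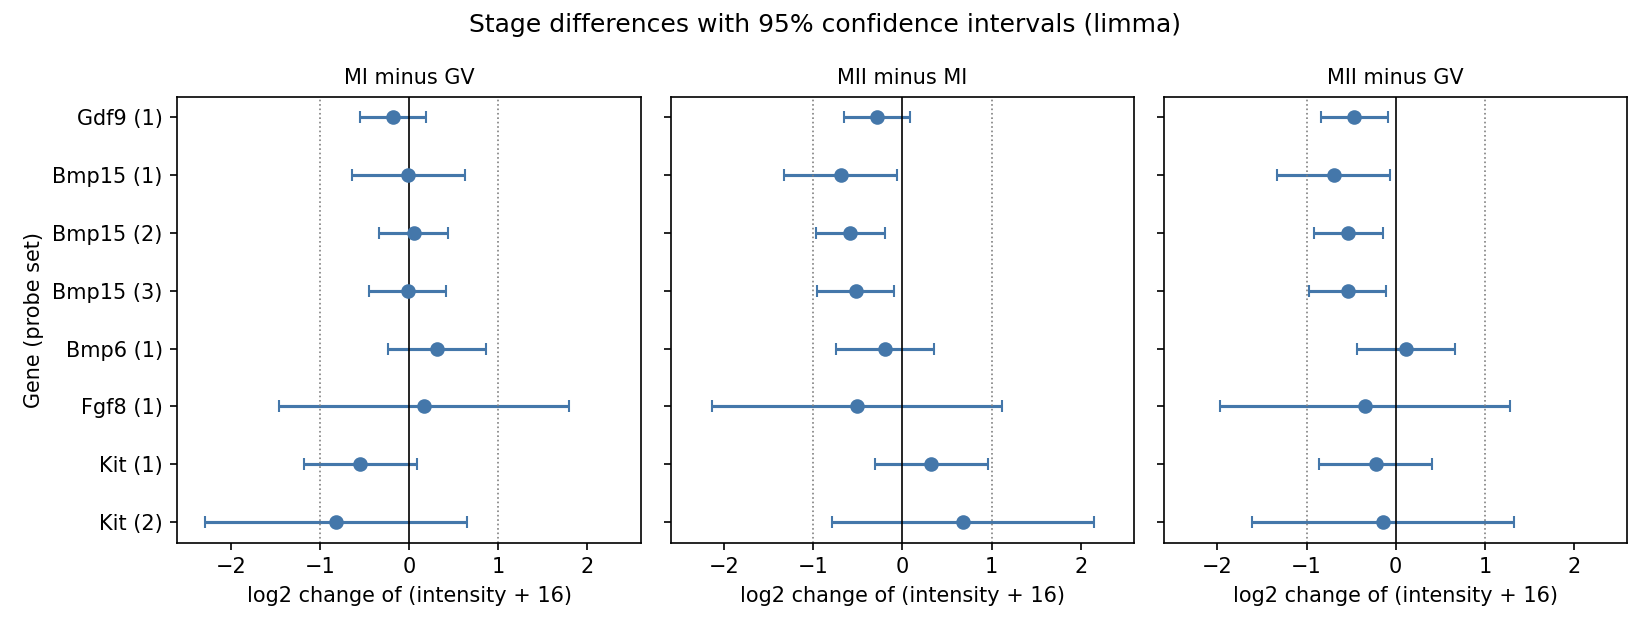
Differences between stages on the log2(intensity + 16) scale (horizontal axis) for each probe set (vertical axis, set number in brackets), with limma 95% confidence intervals as bars and dotted lines at a 2-fold difference. The intervals of Gdf9 stay within 2-fold in all 3 panels, those of Fgf8 cross both dotted lines in all 3, and no point passed the adjusted test.

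Of the 5 genes, 0 passed from GV to MI, against 0% of all 18193 genes called there by limma at an adjusted p under 0.05 (smallest adjusted p 0.178, and 1308 genes at an unadjusted p under 0.05). From MI to MII 0 of 5 passed, against 9.32% of genes (2.54%, or 462, higher and 6.78%, or 1233, lower), and Bmp15 alone had an unadjusted p under 0.05. From GV to MII 0 of 5 passed, against 14.3% of genes (5.46%, or 993, higher and 8.8%, or 1601, lower), and Gdf9 and Bmp15 had an unadjusted p under 0.05. Of the 8 probe sets taken singly, 0 passed either, against 0%, 5.42% and 8.98% of all probe sets. At those background shares, 0 of 5 is not a result about these genes. Their median log2 change was -0.01, -0.28 and -0.35 in the 3 comparisons, beside 0.01, -0.02 and -0.02 over all genes. Over the 1860 genes at least as bright as Bmp6 the median was 0.07, -0.14 and -0.11. In a simulation of MII against MI with the spread of these arrays, the test recovered 0% of genes set to change 2-fold and 10.6% of those set to change 4-fold. It set 100 genes per fold to change, while 1695 genes were called in the data, and an adjusted test depends on that number. These shares therefore do not give the recovery for the 5 genes here.

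The F test over the 3 stages passed for 11.6% of genes and for 0 of the 5, with limma adjusted p of 0.355 for Gdf9, 0.261 for Bmp15, 0.532 for Kit, 0.774 for Bmp6 and 0.905 for Fgf8. The step from MI to MII minus the step from GV to MI was -0.68 for Bmp15 and 0.87 for Kit, with limma adjusted p of 0.723 and 0.618, and 0.209% of genes passed that test. The 5 genes were also set against each other within arrays, which does not depend on how arrays were scaled. In exact permutation tests of the 10 pairs over the 1680 assignments of arrays to stages, 0 pairs passed. The smallest p were 0.0750 for Bmp15 with Kit and 0.0786 for Bmp15 with Bmp6 (both 0.393 after Benjamini-Hochberg adjustment over the pairs, where 0.00357 is the smallest p possible).

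All directions above and below hold for the deposited scaling between arrays. When each array was instead centred on 46 cytosolic ribosomal protein genes, the median of all genes moved by 0.19 from GV to MI, 2.70 from MI to MII and 2.87 from GV to MII. On the deposited scaling that median moved by -0.02 from GV to MII, so the ribosomal genes themselves were lower at MII relative to the median gene. It moved by -0.04 with centring on array medians, 0.004 with quantile normalization and 0.06 with a common 95th percentile. Which scaling is right was not tested. On that scale all 5 genes were higher at MII than at MI and at GV and passed the limma test, with log2 changes from MI to MII of 2.44 for Gdf9, 2.03 for Bmp15, 2.52 for Bmp6, 2.21 for Fgf8 and 3.04 for Kit. These are near the shift of the median gene itself. On that scale 15758 of all genes were higher and 98 lower at MII than at MI, and 15811 higher and 116 lower than at GV. Calls of a fall, and counts of calls in the lists below, therefore hold for the deposited scaling: from GV to MII, ribosomal centring gave 14 of 14 receptors, 14 of 14 Smads and regulators and 23 of 24 genes of Kit signalling as higher and 0 as lower.

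The zona pellucida genes, whose products form the coat of the egg, are further secreted products of the oocyte, and on the deposited scaling all 3 fell. Zp3 had stage means of 8694 ± 794, 7813 ± 155 and 1982 ± 834 (SD, n = 3), and fell by 2.07 on the log2 scale from MI to MII (limma adjusted p = 0.00796). Zp2 went from 7683 ± 838 at GV to 1696 ± 720 at MII (-2.27, limma adjusted p = 0.00500) and Zp1 from 5485 ± 407 to 1574 ± 436 (-1.82, limma adjusted p = 0.00355). With arrays centred on ribosomal protein genes, Zp3 gave 0.65 from MI to MII and Zp2 gave 0.62 from GV to MII, so the difference between the gene groups was taken within arrays.

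Within each array, the log2 signal of each growth factor and of Kit was set against that of the zona genes, as a description with no test, since the zona genes were taken for this after their values were seen. From GV to MII the mean difference between the member and a zona gene moved by 1.36 to 1.81 for Gdf9 over the 3 zona genes and by 1.12 to 1.58 for Bmp15. It moved by 1.94 to 2.39 for Bmp6, by 1.60 to 2.05 for Kit and by 1.47 to 1.92 for Fgf8. All 15 values are positive, so the mean ratio of each member to each zona gene was higher at MII than at GV. The zona genes fell from GV to MII while the median of all genes moved by -0.02, so a gene at that median would rise against them too. The positive values are thus not particular to the members. How many other genes show the same was not counted.

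Other oocyte markers spread over a wide range around the growth factors. Of the 11 measured, 0 passed from GV to MI, 6 fell and 0 rose from MI to MII, and 7 fell and 3 rose from GV to MII, on the deposited scaling. Of all genes, 6.78% were lower and 2.54% higher from MI to MII, and 8.8% lower and 5.46% higher from GV to MII. Figla and Nobox had the largest falls among these 11 markers. Figla, which activates zona genes in the growing oocyte, had stage means of 1163 ± 335, 1053 ± 279 and 20.1 ± 4.53, a fall of 5.00 on the log2 scale from GV to MII (limma adjusted p = 0.000423). Nobox, a homeobox factor known to act on the Gdf9 promoter, went from 3948 ± 639 over 2208 ± 400 to 634 ± 578 (-2.97 from GV to MII, limma adjusted p = 0.0102), a call lost with ribosomal centring (-0.07). It fell by 2.13 from MI to MII (limma adjusted p = 0.0499), a call that was lost without any array but MII 1 (0.0742 to 0.140), and with ribosomal centring its value was 0.59. The 3 that rose from GV to MII were Mos, a kinase of the MII arrest, the RNA-binding protein Dazl, and Oosp1, an oocyte-secreted protein. Oosp1 had means of 4035 ± 630, 5741 ± 571 and 8663 ± 524 and rose by 1.11 (limma adjusted p = 0.00956).

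**Figure D3:**
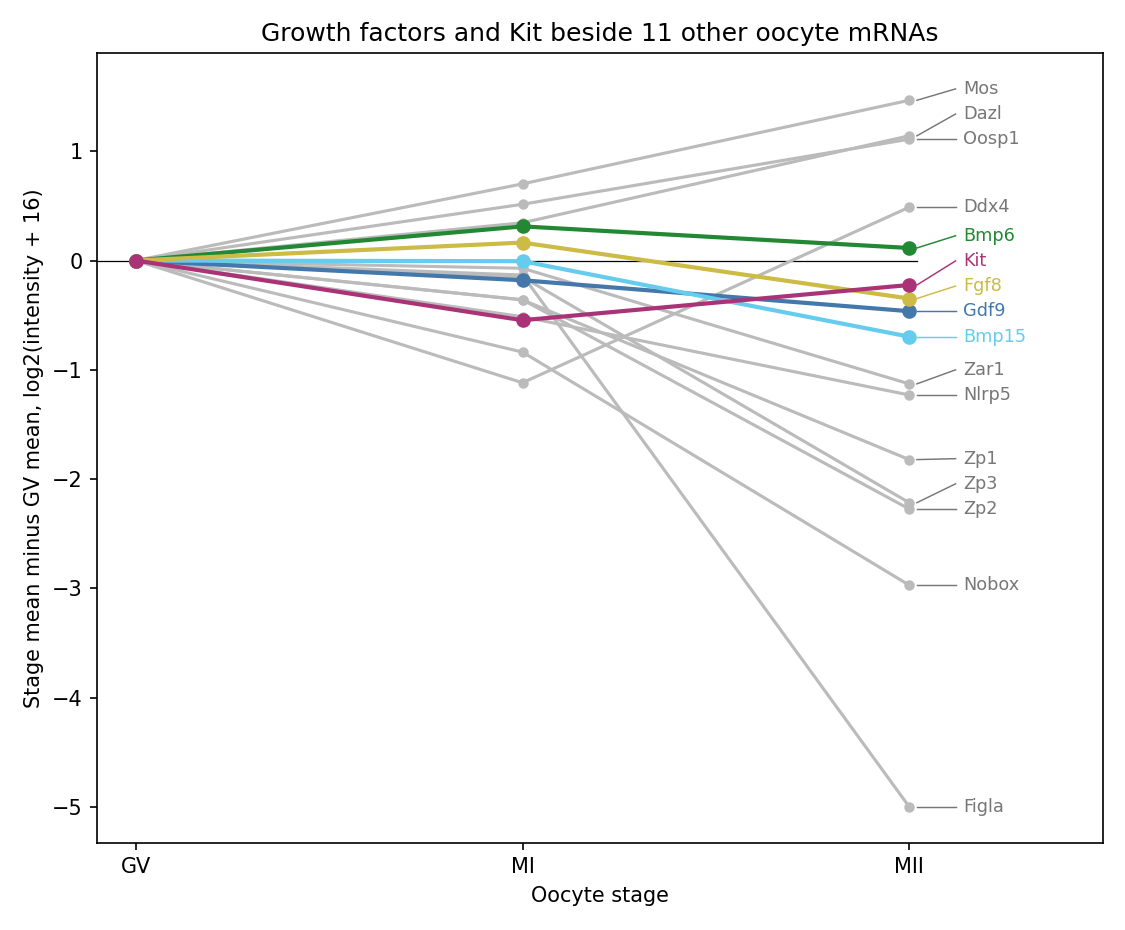
Stage mean minus the GV mean on the log2(intensity + 16) scale (vertical axis) at each stage (horizontal axis), for the growth factors and Kit (coloured lines) and 11 other oocyte mRNAs (grey lines), on the deposited scaling. The 5 coloured lines end between -0.70 and 0.11 at MII, while the grey lines end between -5.00 and 1.47.

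Of 26 other ligands of the TGF-beta family, 21 were measured, 9 of these never lay above the olfactory receptor reference, and 2 lay above it on all 9 arrays. None passed from GV to MI or from MI to MII, and their median log2 change was 0.04 from GV to MII. From GV to MII 1 rose and 1 fell, beside 5.46% of all genes higher and 8.8% lower, so these counts are not a result about the list. Bmp5, a relative of Bmp6, rose from 487 ± 244 over 961 ± 298 to 2245 ± 964 (2.20 on the log2 scale, limma adjusted p = 0.0161), and passed without each array in turn. Tgfb2 fell from 2171 ± 565 to 696 ± 151 (-1.60, limma adjusted p = 0.0264), but its other 3 probe sets gave -0.78, 2.09 and 1.46, the mean of all its probe sets gave 0.29, and ribosomal centring gave 1.30. The Tgfb2 call was lost without GV 1, GV 3, MII 2 or MII 3 (limma adjusted p = 0.0780 to 0.0850).

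Of the receptors of these ligands, 1 rose from MI to MII and 3 from GV to MII, beside 2.54% and 5.46% of all genes. All 14 were measured, with a median log2 change of 0.48 from GV to MII beside -0.02 over all genes, and 3 of 14 rose, 0 fell and 11 did not pass. The count was 1 without GV 2, GV 3, MII 1 or MII 3, 2 without GV 1, MI 2 or MII 2, and 5 when the probe sets of a gene were averaged. Tgfbr3, the coreceptor betaglycan, had means of 243 ± 43.5, 291 ± 107 and 1091 ± 383 and rose between MI and MII by 1.85 (limma adjusted p = 0.0149) and over the whole span from GV by 2.05 (0.00650), also without each array in turn. Bmpr1b, a type I receptor through which BMP15 and BMP6 are known to signal, went from 445 ± 293 to 1564 ± 287 (1.94, limma adjusted p = 0.0217). Acvr1, a type I receptor of BMP6, went from 38.9 ± 12.8 to 272 ± 189 (2.24, limma adjusted p = 0.0400). It lay above the olfactory receptor reference on 5 of 9 arrays, and its other probe sets gave 0.38 and 1.69. Bmpr1b was lost without GV 2, GV 3, MII 1 or MII 3 (0.0629 to 0.0725), and Acvr1 in 7 of 9 such fits, all but those without MI 1 or MI 3 (0.0587 to 0.117). Bmpr2, the type II receptor of GDF9 and BMP15, was outside the naming rule and had means of 455 ± 214, 684 ± 449 and 1299 ± 470, which did not pass (1.51 from GV to MII, limma adjusted p = 0.193). From GV to MI 0 of 14 receptors passed, and the smallest p was that of Amhr2, the receptor of anti-Muellerian hormone (-1.11, limma adjusted p = 0.662).

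The Smads, which carry the signal of these receptors to the nucleus, were all measured with their regulators, 14 of 14. None passed from GV to MI, 1 fell from MI to MII, and from GV to MII 2 rose and 1 fell, with a median log2 change of 0.28. Of all genes, 6.78% were lower from MI to MII, and 5.46% were higher and 8.8% lower from GV to MII. Smad1, used by receptors of BMPs, went from 158 ± 101 over 390 ± 87.0 to 753 ± 77.3 (2.38, limma adjusted p = 0.0163) and was lost without MII 1 or MII 3 (0.0509 and 0.0529). Smad5, its close relative, went from 20.8 ± 23.3 to 112 ± 33.5 (1.95, limma adjusted p = 0.0436), while its other probe sets gave -1.13 and 0.98. It was lost in 7 of 9 such fits, all but those without GV 1 or MI 2 (0.0504 to 0.129). Ski, a corepressor of Smads, went from 2353 ± 516 over 2179 ± 881 to 680 ± 230, -1.62 from MI to MII and -1.79 from GV to MII (limma adjusted p = 0.0378 and 0.0182). Its other probe set gave 1.02 and 1.85, and ribosomal centring gave 1.10 in both comparisons, so its direction depends on probe set and scaling. The Ski call from MI to MII was lost in 7 of 9 such fits, all but those without MI 3 or MII 1 (0.0527 to 0.117), and that from GV to MII without GV 1, GV 2, MII 2 or MII 3 (0.0521 to 0.0610).

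Of 13 secreted inhibitors of the family that were measured, 1 fell from MI to MII, near the 6.78% of all genes that were lower there, and 0 passed in the other comparisons. It was Grem1, a BMP antagonist usually made by cumulus cells, with means of 130 ± 49.9, 363 ± 382 and 16.9 ± 0.65 (-3.05, limma adjusted p = 0.0212), and it was lost without any MII array (0.0579 to 0.0674) and with ribosomal centring (-0.33). Of 7 proprotein convertases, which mature the ligands, 0 passed in any comparison, a number too small to set against the shares of all genes. Furin, which cleaves precursors of the family, had means of 4567 ± 1138, 2506 ± 820 and 3417 ± 869, and its MI minus GV of -0.89 did not pass (limma adjusted p = 0.662).

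Genes on the receiving side of Kit moved in both directions. Of 27 listed, 24 were measured, 0 passed from GV to MI or from MI to MII, and from GV to MII 4 rose (Yes1, Shc1, Sos2 and Pik3r1) and 3 fell (Grb2, Plcg1 and Ptpn11), with a median of 0.32. Of all genes, 5.46% were higher and 8.8% lower from GV to MII. Grb2, an adaptor that couples receptors to Ras, went from 468 ± 324 to 34.3 ± 30.1 (-3.31, limma adjusted p = 0.00956), while its dimmer probe set gave 0.04 and ribosomal centring -0.41, without a call. Ptpn11, the phosphatase SHP2, had means of 2694 ± 201, 1242 ± 148 and 966 ± 48.7, with the smallest p of the list from GV to MI (-1.11, limma adjusted p = 0.194) and a fall of 1.46 from GV to MII (limma adjusted p = 0.00253). The Src family kinase Yes1 went from 135 ± 142 to 862 ± 95.1 (2.99, limma adjusted p = 0.0332) and the adaptor Shc1 from 117 ± 85.7 to 589 ± 145 (2.39, limma adjusted p = 0.0389). Yes1 was lost without GV 2, GV 3 or any MII array (0.0814 to 0.0924), and Shc1 without those or MI 2 (0.0565 to 0.111). With each array left out in turn, 0 to 4 of the list rose and 2 or 3 fell. Kit ligand itself, a granulosa cell product, had means of 12.8 ± 10.3, 25.4 ± 7.30 and 43.5 ± 44.5 and lay above the reference on 3 of 9 arrays.

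Of 34 further FGF ligands, receptors and feedback genes, 33 were measured, 11 never lay above the reference and 3 lay above it on all 9 arrays. None passed from GV to MI or from MI to MII, and the median from GV to MII was 0.04. From GV to MII 1 rose and 0 fell, beside 5.46% of all genes higher and 8.8% lower, so these counts are not a result about the list. It was Spred1, a feedback inhibitor of Ras signalling, which went from 71.8 ± 26.3 to 424 ± 140 (2.31, limma adjusted p = 0.0339). Its 7 dimmer probe sets gave 0.43, 1.16, 1.19, 0.14, -0.12, 1.34 and 2.56. The Spred1 call was lost without any GV or any MII array (limma adjusted p = 0.0526 to 0.104). Fgfr2, a receptor named for the smallest p of the list from MI to MII, had means of 330 ± 295, 313 ± 148 and 895 ± 313, and its 1.51 from MI to MII did not pass (limma adjusted p = 0.179).

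**Figure D4:**
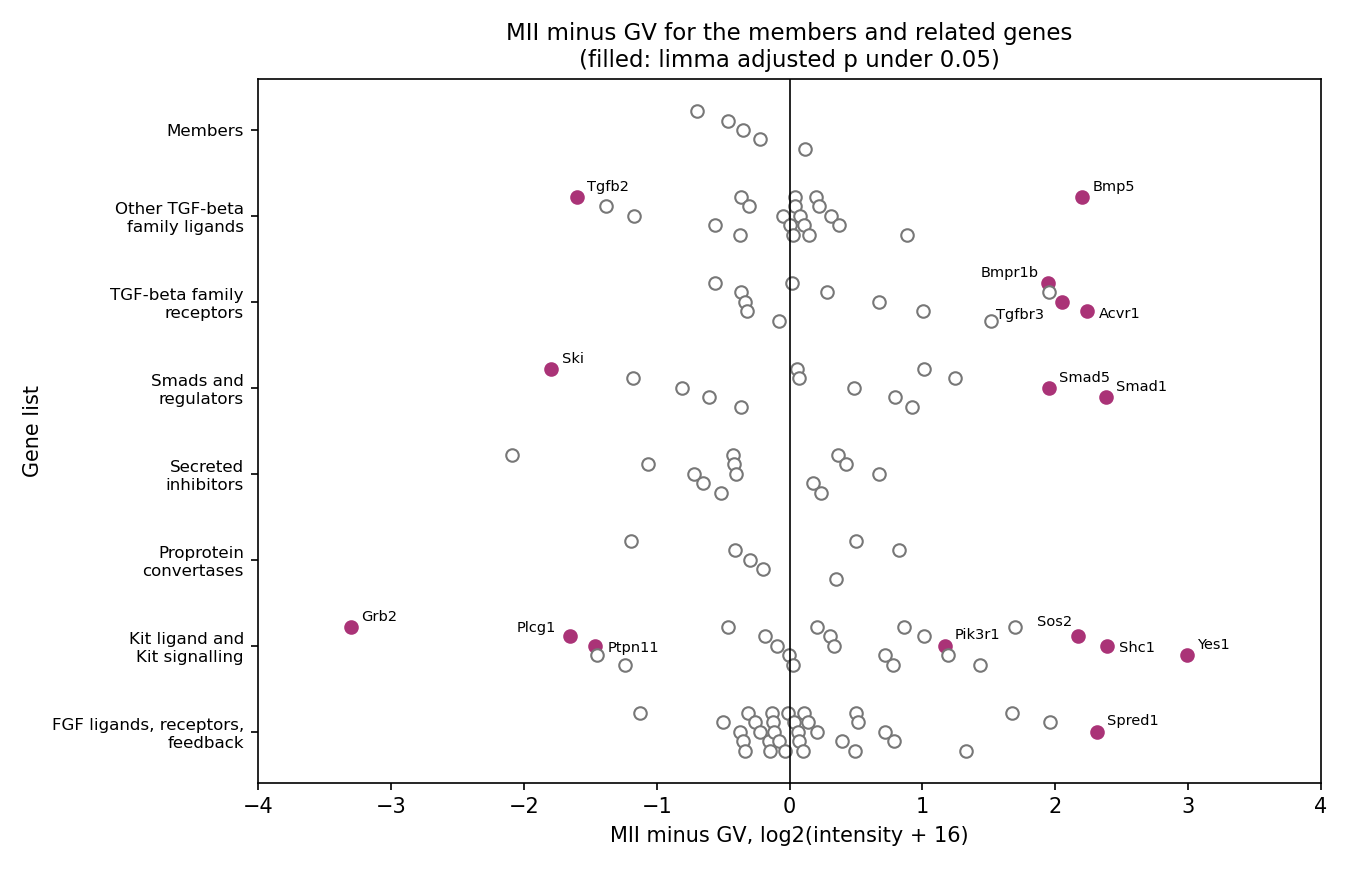
Log2 change from GV to MII on the deposited scaling (horizontal axis) for the 5 members and 7 lists of related genes (vertical axis); each point is a gene, and filled, named points passed the limma test. The 5 members lie between -0.70 and 0.11 with none filled, and 3 of 14 receptors are filled, all to the right of 0.

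Tnfaip6, a gene of cumulus expansion above it on 3 of 9 arrays, had means of 3.77 ± 1.23 at GV, 66.4 ± 17.9 at MI and 9.65 ± 12.2 at MII. It fell from MI to MII (-1.76, limma adjusted p = 0.0176), lost without MI 1, MI 2, MII 1 or MII 3 (0.0543 to 0.0648) and 0.96 with ribosomal centring, and its 2.04 from GV to MI did not pass (limma adjusted p = 0.194). The gap junction gene Gja1, of granulosa cells, fell from 200 ± 125 at GV to 6.47 ± 4.23 at MII (-3.12, limma adjusted p = 0.0326), lost without GV 2, GV 3 or any MII array (0.0759 to 0.101) and with ribosomal centring (-0.22). Has2 and Ptx3, 2 further expansion genes outside the naming rule, lay above the reference on 1 and 3 of 9 arrays. Among 9 markers of blood, immune and endothelial cells, summed to 358 to 845 at GV, 476 to 847 at MI and 631 to 936 at MII, Tek fell from 369 ± 160 at GV and 361 ± 197 at MI to 21.1 ± 22.8 at MII (limma adjusted p = 0.00609 and 0.00961), calls lost with ribosomal centring (-0.54 and -0.68).

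Genes whose log2 values followed those of a member most closely were named as a description, from Pearson's r over the 9 arrays among 8732 genes. With Gdf9 these were Ddx20 (r = 0.98), Uvrag (0.97) and Chchd1 (0.97), and with Bmp15 Dctn3 (0.96), Brf2 (0.96) and Tpi1 (0.95). They shared the order of the arrays but not the size of the difference: from GV to MII, Chchd1 had a log2 change of -4.04 and Tpi1 of -3.77, beside -0.46 for Gdf9 and -0.70 for Bmp15. With Bmp6 they were Ccnd1 (0.93), Sema6a (0.92) and Rgcc (0.91), with Fgf8 Smarca4, Gnb5 and Abcf1 (0.89 each), and with Kit Znfx1 (0.92), Sirpa (0.89) and Atxn10 (0.89). Znfx1, like Kit, had its lowest mean at MI, with a log2 change of -1.45 from GV to MI and 0.76 from MI to MII. This likeness follows from how Znfx1 was picked, and the 2 steps of Kit itself did not pass.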

How the data were processed

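The table the authors deposited gives 1 linear intensity per probe set and array, and was used unchanged. Per the labels' protocols, polysome-bound mRNA was column-purified, reverse-transcribed and linearly amplified with a system made for degraded RNA. How probes were summarised, corrected for background and scaled is not given in the sources used here, and the table held 0 further columns of per-sample values. After leaving out 64 controls, 34945 probe sets had 1 gene symbol in the platform annotation, and the brightest stood for each gene. With log2(intensity + 16), stage means over 9 arrays were fitted with limma 3.58.1 in R 4.3.3 and adjusted by Benjamini-Hochberg over 18193 genes or, for single probe sets, over 45037. Tests were two-sided, and fold changes on this scale understate those of dim genes. Without a filter on low signal, every member was tested. The test was tested on simulated data with 5 draws.

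Members and gene lists were chosen with earlier results of these data known. Named genes were the members, per list and comparison up to 3 that passed with the largest change or else the 1 with the smallest p, and per member the 3 with the highest r at or above the median signal. Further genes named as exceptions were chosen after their values were seen. Alternatives were other pseudocounts, scalings, probe set rules, a filter on low signal, the replicate number as a block and each array left out.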

Additional observations from a re-analysis of the deposited data

How the results depend on the processing

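As genes, the 5 members passed no comparison under the pseudocounts 1 and 64, centring on array medians, quantile normalization, a common 95th percentile, the filter, or the mean or each of all probe sets. Centring on ribosomal protein genes called all 5 higher at MII against both stages. It reversed, from MI to MII, Gdf9 (2.44), Bmp15 (2.03), Bmp6 (2.52), Fgf8 (2.21), Ski (1.10), Zp3 (0.65), Nobox (0.59) and Tnfaip6 (0.96). From GV to MII it reversed Gdf9 (2.43), Bmp15 (2.20), Fgf8 (2.55), Kit (2.67), Tgfb2 (1.30), Ski (1.10) and Zp2 (0.62). In the difference between the steps it reversed Gdf9 (2.44), Bmp15 (1.86) and Bmp6 (2.03), and Fgf8 (1.86) without passing. It ended the calls on Grem1 (-0.33) and Tek (-0.68) from MI to MII and on Grb2 (-0.41), Nobox (-0.07), Gja1 (-0.22) and Tek (-0.54) from GV to MII. The mean of all probe sets reversed Tgfb2 (0.29) and Ski (0.030) from GV to MII. The cause was not tested. With arrays left out in turn, 0 to 1 members were called lower at MII (1, Bmp15, without MII 1), 0 higher and 0 pairs of members differed. With the replicate number as a block, 0 members passed (limma adjusted p for Bmp15 0.248 from MI to MII and 0.210 from GV to MII, for Gdf9 0.213). Same-numbered arrays of different stages deviated together with correlations of 0.000764 to 0.226 over 9 pairs, all positive, and others with -0.250 to 0.109. Whether the numbers pair samples or mark a shared batch is not stated in the labels and was not tested. The main fit took no account of the numbers. All genes split into 462 higher and 1233 lower from MI to MII, 827 and 1133 with quantile normalization, 782 and 1110 at a common 95th percentile, 185 and 931 with a pseudocount of 1 and 15758 and 98 with ribosomal centring. From GV to MII, 993 and 1601 became 1336 and 1502 with quantile normalization, 1362 and 1470 at a common 95th percentile and 15811 and 116 with ribosomal centring.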
